A study of Rattus norvegicus with 8 samples.

Results

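The proteasome genes of the rat hypothalamus were taken from a table of RNA 3′ ends as every protein-coding gene whose symbol begins with Psma, Psmb, Psmc, Psmd, Psme, Psmf or Psmg. The rule found 40 genes of 12255 and 106 of the 73922 sites of the table, and it used no measured value. Hypothalamic RNA of 8 rats was sequenced, all of them adult Long-Evans males. The 4 rats with diet-induced obesity had free access to a high fat diet, with 1.71 kcal/g from fat, and the 4 control rats were kept on standard chow of 3.41 kcal/g, with 0.51 kcal/g from fat, all for 36 days. Each rat gave 1 WTTS-seq library (whole transcriptome termini site sequencing), in which a read marks the 3′ end of a polyadenylated RNA. Body weights were not used here.

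The proteasome is the protease that degrades proteins tagged with ubiquitin. Its barrel, the 20S core, is built of outer alpha rings that gate the entry and inner beta rings that hold the cutting sites, and the 19S regulatory particle on its end binds tagged proteins, removes the ubiquitin and threads the chain inward with a ring of ATPases. Dedicated chaperones help the particles assemble, and separate activators can cap the core in place of the 19S particle. Neurons rely on the proteasome for the turnover of synaptic and regulatory proteins, and in many cells the subunit genes rise together when proteasome activity falls short, through the transcription factor encoded by Nfe2l1.

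The genes covered most of the particle. The table held 6 alpha ring genes, 3 structural and all 3 catalytic beta ring genes, all 6 ATPases and 3 other genes of the 19S base, all 8 listed genes of the 19S lid, 6 assembly chaperones, and 4 genes of activators and an inhibitor. The last of the 40, Psmc3ip, shares the prefix but encodes a partner of meiotic recombinases and no proteasome subunit. Psma1, Psma8, Psmb4, Psmd10, Psme3 and the beta subunits of the immunoproteasome and thymoproteasome, Psmb8, Psmb9, Psmb10 and Psmb11, had no row and were not analysed here. Of a list of 14 hypothalamic peptide genes, 12 were found, with a summed level of 1249 to 1658 CPM (reads per 1000000, defined below) in the control libraries and 1015 to 1265 CPM in the obesity libraries. Avp made up most of it, at 812 to 1174 CPM in control and 601 to 798 in obesity. No other tissue was compared, so the sum does not test the tissue label.

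Promoters of Psmd11, Psma6 and Psmb5 are shown because these were, with Psmd12, the genes with the lowest unadjusted p-values below. They are the 250 bases before the annotated start in RefSeq, read 5′ to 3′, with build GRCr8 coordinates (chr10:65932093-65932342, plus strand, for Psmd11, chr6:78514097-78514346, plus strand, for Psma6 and chr15:32047380-32047629, minus strand, for Psmb5). Capitals mark matches on either strand to CCGGAA, the core read by ETS factors, CCAAT, the CCAAT box, or TGACNNNGC, the core of the antioxidant response element, to which the Nfe2l1 factor and its relatives bind.
Psmd11: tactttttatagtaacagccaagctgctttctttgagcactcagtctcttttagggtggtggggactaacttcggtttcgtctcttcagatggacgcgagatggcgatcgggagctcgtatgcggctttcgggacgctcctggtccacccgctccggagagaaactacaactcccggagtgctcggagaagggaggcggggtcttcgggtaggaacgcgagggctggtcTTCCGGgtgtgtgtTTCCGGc
Psma6: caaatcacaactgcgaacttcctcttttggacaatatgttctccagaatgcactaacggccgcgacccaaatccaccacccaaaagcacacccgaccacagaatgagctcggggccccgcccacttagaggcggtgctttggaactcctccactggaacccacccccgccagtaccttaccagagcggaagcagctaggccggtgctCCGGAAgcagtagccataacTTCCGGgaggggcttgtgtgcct
Psmb5: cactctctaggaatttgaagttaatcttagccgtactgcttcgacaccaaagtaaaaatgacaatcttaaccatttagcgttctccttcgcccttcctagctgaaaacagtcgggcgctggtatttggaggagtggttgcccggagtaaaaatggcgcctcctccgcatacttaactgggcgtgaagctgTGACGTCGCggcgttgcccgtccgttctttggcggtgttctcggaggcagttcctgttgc

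Of the 40 genes, 36 had a promoter in the RefSeq table (Psma7, Psmd6, Psmd12 and Psmd14 did not). CCGGAA was in 16 of the 36 (44.4%) and in 12.6% of all 33469 promoters of that length. CCAAT was in 17 (47.2%), against 34% of all, and TGACNNNGC in 7 (19.4%), against 10.1% of all. The 7 were Psma3, Psmb2, Psmb5, Psmb6, Psmd1, Psmd9 and Psme4. Psmd11 and Psma6 each held CCGGAA at 2 positions within 43 bases of the start, and Psmb5 held TGACNNNGC beginning 60 bases before it. These are matches of letters and were not tested as binding sites.

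The subunits of a ring enter the particle in equal number as proteins, while the mean 3′-end read levels of their genes differed up to 29.1-fold in the alpha ring and 11.4-fold among the ATPases. Reads do not measure protein, and how far the capture or annotation of sites set these levels was not tested. Over all 40 genes the span was 118-fold. Levels are given in CPM, the reads of all sites of a gene per 1000000 reads of genes, scaled between libraries by the TMM method. A transcript gives 1 read at its 3′ end whatever its length, so CPM were not divided by length, though priming inside long transcripts can add reads. Mean CPM over the 8 libraries ran from 2.66 for the chaperone gene Psmg4 to 313 for the alpha subunit gene Psma4, with a median of 25.3 against 20.5 over all genes. Psma4, the beta subunit gene Psmb1, and Psmd2 and Psmd3, scaffold genes of the base and the lid, held 47.5% of the 24587 proteasome reads. At the other end, 7 genes had fewer than 100 reads in all 8 libraries together, and 36 of the 40 were read in every library.

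**Figure D1:**
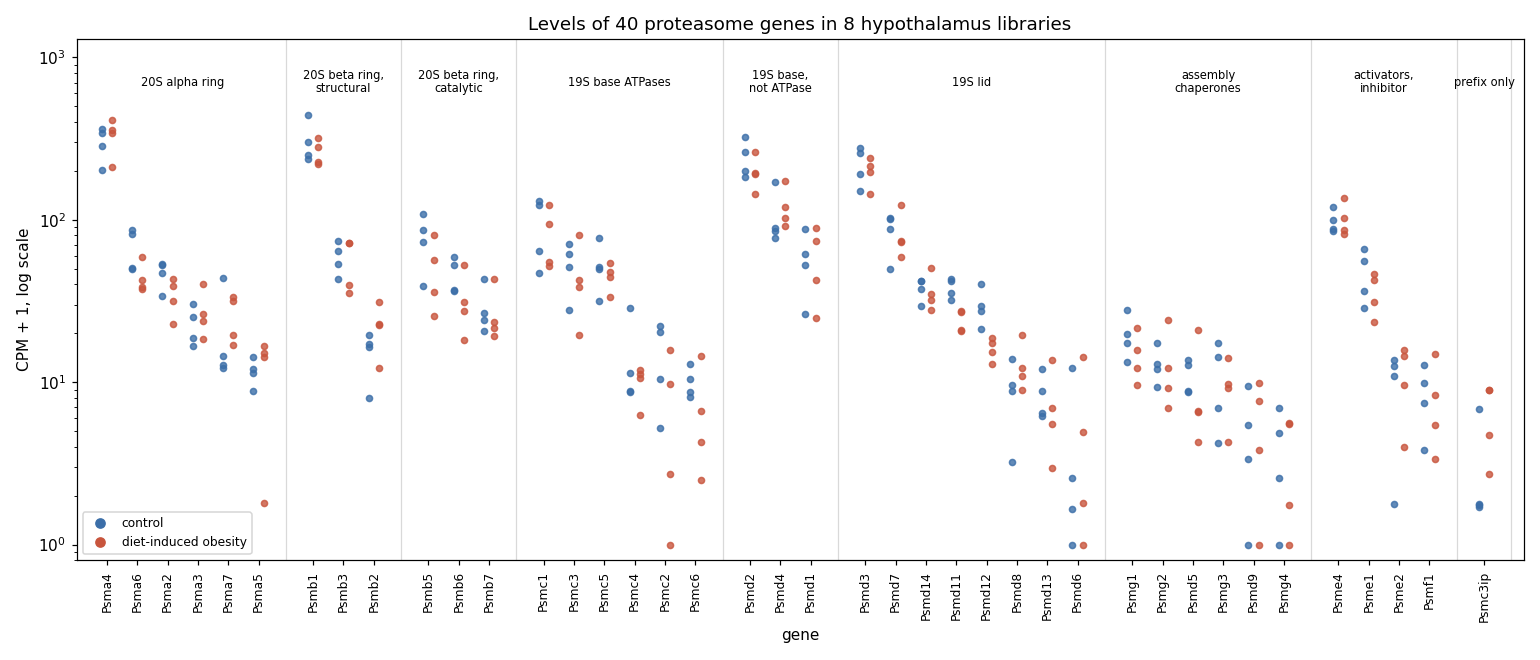
Level of each of the 40 genes in each library, as CPM + 1 on a log scale, with genes grouped by role and ordered by mean level within a role (blue, 4 control libraries; red, 4 obesity libraries). Mean levels within the alpha ring ran from 10.8 to 313 CPM, and the points of both groups overlapped for all genes but Psmd11 and Psmd12.

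The most abundant genes of the rings were Psma4 and Psmb1. In the alpha ring Psma4 averaged 313 CPM, followed by Psma6 at 54.8 and Psma2 at 39.4, down to Psma5 at 10.8. In the beta rings Psmb1, a structural subunit, averaged 284 CPM, while the catalytic subunits were read at 62.2 (Psmb5, the chymotrypsin-like site), 38.2 (Psmb6, the caspase-like site) and 26.8 (Psmb7, the trypsin-like site). Libraries overlapped between each pair of catalytic genes that neighbour in this order.

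The 6 ATPases averaged 7.51 (Psmc6) to 85.3 CPM (Psmc1). Among the other 19S genes, Psmd2 averaged 219 CPM, Psmd3 208 and Psmd4, a ubiquitin receptor, 113, and the lowest was the lid gene Psmd6 at 3.92. The assembly chaperones were the role of lowest level, with 16.2 CPM for Psmg1 at their top. Of the activators, Psme4, which encodes a large cap protein of the nucleus, averaged 98.9 CPM, and Psme1 and Psme2, whose products form the interferon-inducible cap, 40.3 and 9.34. A pseudogene of Psme1 with 2 sites on chromosome 17 (55 and 76 reads) was left out of the sums, and reads of Psme1 and this copy may not be fully separable.

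The main comparison asked whether the diet groups differed in the level of proteasome transcripts. In a fit over all genes (edgeR quasi-likelihood test, n = 4 per group), 0 of the 40 passed an adjusted p of 0.1 (Benjamini-Hochberg), as did 0% of all genes. At an unadjusted p under 0.05 there were 2, the lid genes Psmd12 and Psmd11, both lower in obesity, which is 5% of the 40 against 5.3% of all genes. The DESeq2 Wald test also passed 0 genes of the 40 (0.0245% of all genes), with the same 2 at an unadjusted p under 0.05 (6.05% of all genes). The lowest adjusted p among the 40 was 0.904 with edgeR and 0.798 with DESeq2.

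Same-numbered control and obesity libraries varied together (below), so the fit was repeated with the library number as a block. With the block, 0.122% of all genes passed the adjusted threshold and again 0 of the 40. At an unadjusted p under 0.05 there were 4, Psmd12, Psma6, Psmd11 and Psmb5, against 10.9% of all genes, and all 4 were lower in obesity. The share of proteasome genes at an unadjusted p under 0.05 was therefore near or below that of all genes in both fits. In bulk tissue, fewer cells of a type and less RNA per cell cannot be told apart.

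Psmd12 (chr10:95712894-95725816, plus strand, build Rnor_6.0) encodes a scaffold subunit of the lid. It was read in the control libraries, in the order of their numbers, at 28.3, 26.5, 39.1 and 20.1 CPM, and under obesity at 11.9, 14.3, 17.6 and 16.5 CPM. Every obesity library lay below every control library, control 4 being nearest. The log2 fold change was -0.91 (SE 0.38, 95% interval -1.70 to -0.12), with an unadjusted p of 0.0266 and an adjusted p of 0.904 (edgeR), or 0.0244 and 0.374 with the block.

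Psmd11 (chr10:67816564-67856503, plus strand), whose lid product sits beside it and touches the core, was read at 31.1, 40.7, 42.3 and 34.2 CPM in control and 20, 26.2, 26.6 and 19.8 CPM in obesity. The groups did not overlap for this gene either. Its log2 fold change was -0.67 (SE 0.32), with an unadjusted p of 0.0499 and an adjusted p of 0.904 (edgeR). Psmd11 and Psmd12 were the only proteasome genes without overlap, and 205 of all genes (1.67%) lay lower in every obesity library, so the 2 make 5% of the 40. None of the 40 lay higher in every obesity library, and the share of all genes that did was not counted.

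Psma6 (chr6:76200476-76205434, plus strand), of the alpha ring, was read at 49.5, 49.1, 86.1 and 80.3 CPM in control and 36.4, 41.3, 37.4 and 58.2 in obesity. It was lower in obesity in 4 of 4 same-numbered pairs, but obesity 4 lay above control 1 and control 2. The log2 fold change was -0.61 (SE 0.29), with an unadjusted p of 0.053, or 0.0256 with the block (adjusted p = 0.376, edgeR). Psmd11, Psmd12 and Psma6 were the 3 genes lower in all 4 pairs, and 6 of the 40 were lower in none. The shares of all genes for these counts were not computed, so no trait of the 40 is read from them.

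Psmb5 (chr15:33259039-33259046, minus strand), the catalytic subunit that proteasome inhibitors used as drugs block first, was read at 72.1, 38.1, 107 and 85.5 CPM in control and 34.9, 79.4, 55.5 and 24.5 in obesity. The pair numbered 2 went against the others, with its obesity library above its control library. The log2 fold change was -0.64 (SE 0.37), with an unadjusted p of 0.0998 and an adjusted p of 0.912 (edgeR). With the block and without both libraries numbered 2 it was -1.26 (SE 0.27, adjusted p = 0.00867), and Psmb5 was then the 1 proteasome gene of 40 to pass, in a fit that passed 4.63% of all genes. The pair numbered 2 was the one that ran against the others, so leaving it out widened the difference by construction. With the block and without both libraries numbered 1, 3 or 4, the log2 fold change was -0.58, -0.59 and -0.33 (adjusted p = 0.78, 0.842 and 0.899, edgeR). With no block, it was -0.99 without obesity 2 alone and -0.42 without obesity 4 alone.

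**Figure D2:**
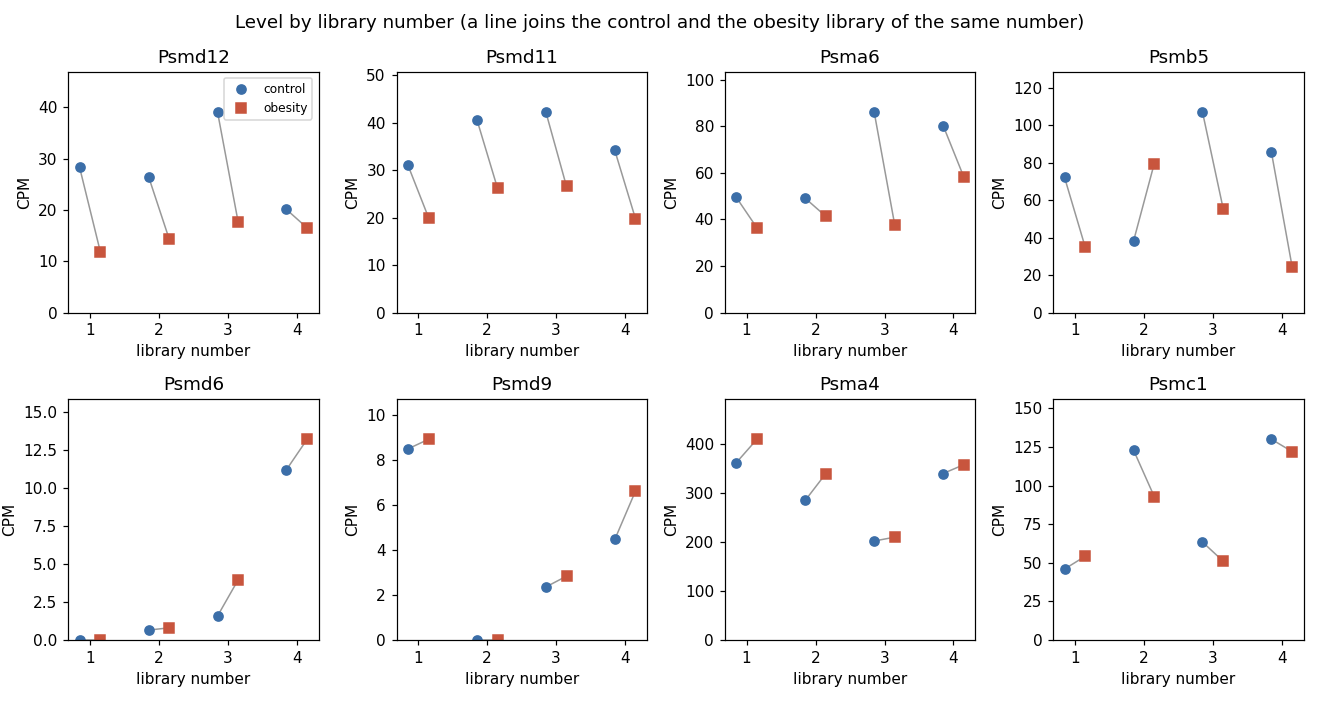
Level in CPM by library number for the 4 genes with the lowest p-values (top row) and for 4 genes whose control and obesity libraries of the same number lay close (bottom row); a grey line joins the control (blue) and the obesity library (red) of a number, and the y axes start at 0. Psmd12, Psmd11 and Psma6 lay lower under obesity at all 4 numbers and Psmb5 at 3, while Psmd6 and Psmd9 differed far more between numbers than between groups.

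Obesity 2 also stood apart in some genes of neighbouring tissue. It held 69.1 CPM of Gh1, the growth hormone gene of the anterior pituitary, which was at 0 to 0.783 CPM in the other 7 libraries, and 46.1 CPM of the pituitary gene Lhb, which was at 0 to 6.26 CPM elsewhere. Cga, also of the pituitary, was not high there, at 8.74 CPM against 0 to 50.2 CPM elsewhere. Obesity 4 held 95.2 CPM of Ttr, a choroid plexus gene, which was at 0 to 1.49 CPM elsewhere. Of the 9 pituitary and choroid plexus genes listed, 4 were found, with a summed level of 18 to 55.8 CPM in control and 26.7 to 124 CPM in obesity. Their part in the Psmb5 values was not tested. Without obesity 2, 4 proteasome genes reached an unadjusted p under 0.05 (Psmb5, Psmb6, Psmd11 and Psmd12, all lower), which is 10% of the 40 against 9.96% of all genes. Without control 2 there were 5 (12.5%, against 4.89% of all genes), of which Psma7 and Psmc3ip were higher, and without control 1 there were 3 (7.5%, against 4.53%). There was 1 each without control 4, obesity 1 or obesity 3 (2.5%, against 4.31% to 5.12%), and 0 without control 3 (3.5% of all genes). None of these passed the adjusted threshold (edgeR).

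Over the whole set, 26 of the 40 genes had a log2 fold change below 0 (65%, against 49.2% of all genes), with a median of -0.15 against 0.01. Without single libraries the median ran from -0.24 (without obesity 2) to -0.06 (without control 4), and it was -0.09 without control 3 and -0.10 without obesity 3. The fold changes ranged from -1.12 for the ATPase gene Psmc2 to 1.33 for Psmc3ip, which was 2.69 without control 2. For 13 genes the 95% interval lay within a 2-fold change either way, and for the other 27 it reached further. For 25 of these 27, all but Psmd12 and Psmd11, the interval also held 0, so a 2-fold difference could not be told from none. The intervals were narrow for abundant genes (Psma4, -0.35 to 0.65; Psmd2, SE 0.24) and wide for scarce ones (Psmd6, SE 1.25).

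**Figure D3:**
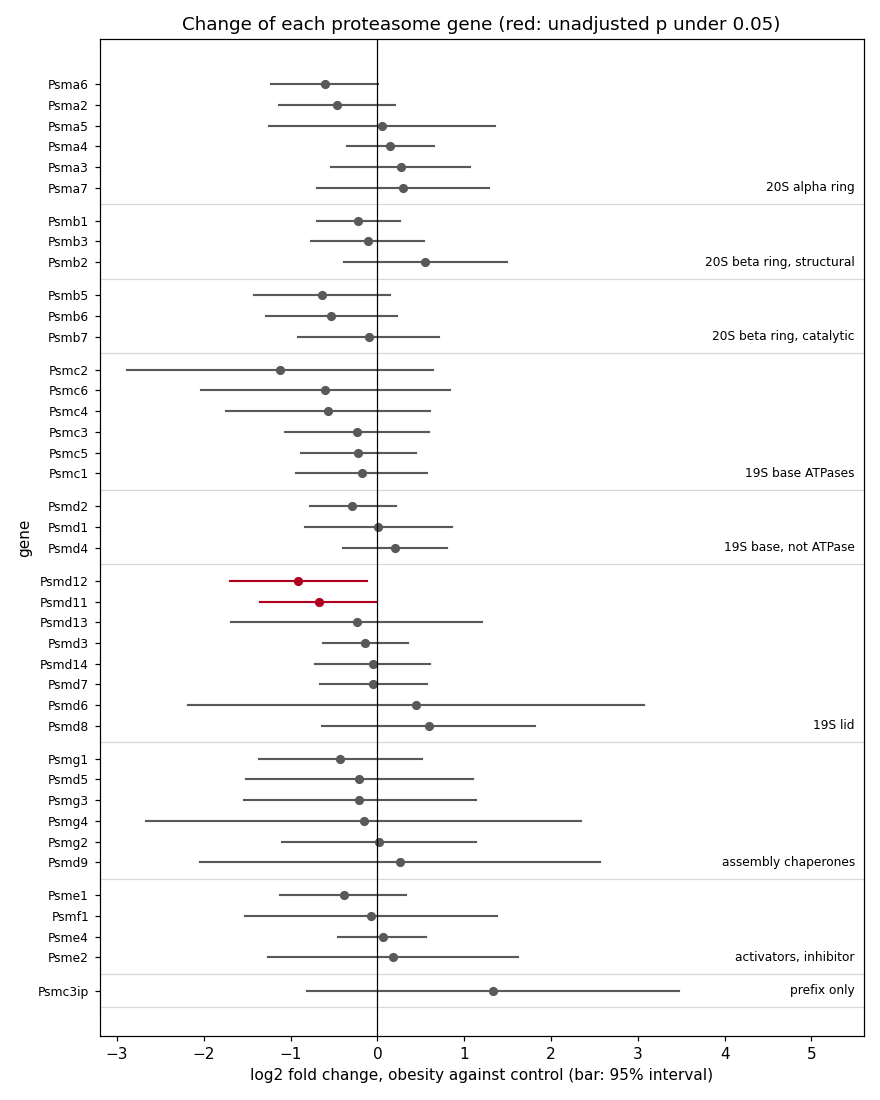
Log2 fold change of each gene in obesity against control (points) with its 95% interval (bars, edgeR fit over all genes), grouped by role. Only the intervals of Psmd12 and Psmd11 (red) lay below 0, and the points ranged from -1.12 for Psmc2 to 1.33 for Psmc3ip.

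By role, the mean summed level was lower in obesity for 7 of the 8 roles of the proteasome, the alpha ring (log2 ratio 0.02) being the exception, and the libraries of both groups overlapped in each. These gaps rested in part on single libraries. The gaps of the activators (-0.06) and of the base without its ATPases (-0.10) closed to 0.01 and 0.00 without obesity 1, that of the structural beta genes (-0.17) to 0.01 without control 3 and that of the chaperones (-0.19) to -0.02 without obesity 4. Summed over the 40 genes, the control libraries had 2068, 2081, 2452 and 2438 CPM and the obesity libraries 1901, 2329, 1925 and 2072 CPM. The means were 2260 ± 214 and 2057 ± 197 CPM (SD, n = 4), a log2 ratio of -0.14, with 3 of 4 pairs lower. Control 3 was the highest library for 10 of the 40 genes, against 12.5% of all genes, and obesity 1 the lowest for 11, against 15.4%. Sums over chosen genes were not tested.

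The catalytic beta genes had the widest gap of these roles. Their sum was 151, 99.4, 185 and 160 CPM in control and 94.3, 149, 106 and 73.4 in obesity. The log2 ratio of the means was -0.49, and the pair numbered 2 again ran the other way. All 3 had a fold change below 0, at -0.64 (Psmb5), -0.53 (Psmb6, SE 0.36) and -0.10 (Psmb7, SE 0.39), and none passed the test. Psmb6 was read at 36, 35.5, 57.9 and 51.3 CPM in control and 17.1, 51.6, 30 and 26.4 in obesity. Psmb7 was read at 19.6 to 42.4 CPM in control and 18.3 to 42.3 in obesity, and 27.1% of its reads came from a site on the other strand. In obesity 1 that site held 61.4% of them. Counting only the strand with more reads, the log2 fold change of Psmb7 was -0.49, and with its most abundant site only it was -0.58. The log2 ratio of the catalytic sum was -0.58 on that 1 strand.

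The 6 ATPases, which unfold the substrate, also all had a fold change below 0 with 0 past the test at an unadjusted p under 0.05 (edgeR, with or without the block). Their sum was 142, 271, 216 and 291 CPM in control and 152, 249, 157 and 200 in obesity, a log2 ratio of -0.28, which was -0.15 without control 4 and -0.47 without control 1. Psmc1, the most abundant, had a log2 fold change of -0.18 (SE 0.35). Psmc2 was read at 4.24, 21.3, 9.39 and 19.3 CPM in control and 14.8, 8.74, 1.7 and 0 in obesity, with a log2 fold change of -1.12 (SE 0.83) over 111 reads. It was -2.01 without obesity 1 (unadjusted p = 0.0394, adjusted p = 0.934, edgeR), -0.71 without obesity 4, and -2.60 with the block and without both libraries numbered 1 (adjusted p = 0.16).

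The lid, which holds the deubiquitinase encoded by Psmd14, was the role with both genes at an unadjusted p under 0.05. Its 8 genes summed to 423 ± 44.2 CPM in control and 376 ± 18.5 CPM in obesity (SD, n = 4, log2 ratio -0.17). The other lid genes ranged from -0.24 (Psmd13) to 0.59 (Psmd8), and Psmd3, the most abundant, stood at -0.14 (SE 0.24). Psmd14 itself was read at 28.4 to 40.9 CPM in control and 26.7 to 49.6 in obesity, with a log2 fold change of -0.05 (SE 0.32). In the base, Psmd2, Psmd1 and Psmd4 had log2 fold changes of -0.29, 0.01 and 0.20.

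**Figure D4:**
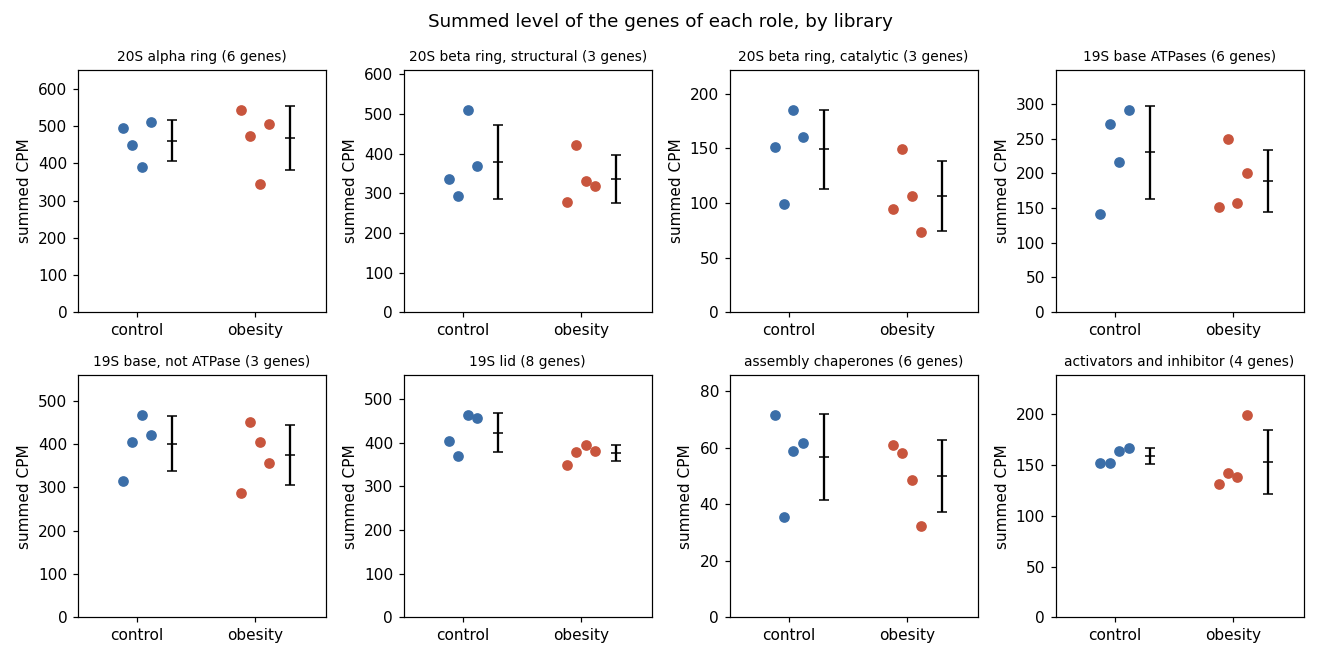
Summed CPM of the genes of each role in each library (points; blue, control; red, obesity) with the mean and SD of 4 libraries (black), on axes that start at 0. The catalytic beta genes ran from 99.4 to 185 CPM in control and from 73.4 to 149 CPM in obesity, and the groups overlapped in all 8 panels.

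The alpha ring summed to 461 ± 54.4 CPM in control and 467 ± 86.2 CPM in obesity, a log2 ratio of 0.02 that was -0.06 without control 3 or without obesity 1, and its difference from the other roles was not tested. Psma4 made up most of the sum. Of its 6 genes, 4 had a fold change above 0, while Psma6 (-0.61) and Psma2 (-0.47) were below 0. Psma4 was read at 362, 285, 202 and 340 CPM in control and 410, 340, 210 and 358 in obesity, higher in 4 of 4 pairs, with a log2 fold change of 0.15 (SE 0.24). The structural beta genes summed to 378 ± 93.5 and 336 ± 60.8 CPM, with Psmb1 at -0.22 (SE 0.23) and Psmb2 at 0.55 (SE 0.45).

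The assembly chaperones summed to 56.8 ± 15.2 CPM in control and 50 ± 12.8 CPM in obesity (SD, n = 4), and the activators and inhibitor to 159 ± 8.02 and 153 ± 31.2 CPM. Psme4 had a log2 fold change of 0.06 (SE 0.24) and Psmg1 of -0.43 (SE 0.45). Of the genes of the interferon-inducible cap, Psme1 stood at -0.39 (SE 0.35) and Psme2 at 0.18 (SE 0.68). These 2 lay 8.57 kb apart on opposite strands of chromosome 15.

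Same-numbered libraries of both groups resembled each other in the proteasome genes. Over the 40 genes, the departure of a library's log2(CPM + 1) from its group's mean correlated at 0.146 to 0.367 between the 4 same-numbered pairs and at -0.309 to 0.133 between the 12 pairs of different number. Over the 106 sites the ranges were 0.227 to 0.388 and -0.385 to 0.0831. Over all genes they were 0.222 to 0.327 and -0.175 to 0.0493, so the likeness was not particular to the proteasome genes. Departures cancel out within a group, so positive values for same numbers by themselves lower those for different numbers. Genes are not independent replicates, and what a number shares is not in the labels.

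Single genes, chosen here after their values were seen, showed the number more strongly than the group. Psmd6 had 0, 1, 2 and 15 reads in the control libraries and 0, 1, 7 and 20 under obesity. Psmd9, a chaperone of the base, had 12, 0, 3 and 6 reads in control and 12, 0, 5 and 10 in obesity. The most 5′ of the 3 sites of Psmd1 had 0, 12, 6 and 59 reads in control and 0, 10, 3 and 56 in obesity. For each of the 3 the libraries ranked in the same order in both groups. The libraries numbered 1 also had the most sites at 0 reads, 14788 in control and 10659 in obesity, against 4062 to 6622 in the other libraries, and among the 106 proteasome sites 16 and 9, against 3 to 8.

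At the level of single sites, 13 of the 40 genes had 1 site, and the other 27 had up to 14. In 15 of these 27 the most used site was also the most 3′ one, and the most used site held a median of 62.7% of the reads of its gene. Psma4 took 98.2% at 1 site and Psmb1 93.8%, each at the middle one of 3. The longest spreads were those of Psme4, with 14 sites over 93.6 kb and no site above 17%, and of Psmd14, with 7 sites over 90.4 kb. Sites could not be placed in exons, introns or UTRs here, since no annotation of Rnor_6.0 was used.

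In the fit over all sites, 0 of the 106 proteasome sites passed an adjusted p of 0.1 (edgeR, 0.00135% of all sites) and 2 had an unadjusted p under 0.05, against 3.14% of all sites. DESeq2 also passed 0 (0.0135% of all sites), with 2 at an unadjusted p under 0.05 (3.83% of all sites), and gave no adjusted p for 52 of the 106. With the block 0 passed (0.00541% of all sites) and 7 had an unadjusted p under 0.05 (6.09% of all sites), all lower in obesity. With the block and without both libraries numbered 2, the single site of Psmb5 passed (adjusted p = 0.049, edgeR), where 0.495% of all sites did.

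The site with the lowest p was the distal site of Psmd12 (chr10:95725781-95725816), which held 83.9% of the reads of the gene. It had 37, 36, 50 and 20 reads in control and 9, 16, 20 and 20 under obesity, and in CPM the groups did not overlap. Its log2 fold change was -1.28 (SE 0.48), with an unadjusted p of 0.0176 and an adjusted p of 1 (edgeR). The proximal site, 12.9 kb upstream, had 3, 5, 0 and 7 reads in control and 7, 2, 11 and 5 in obesity (log2 fold change 0.57, SE 1.01). The test of relative usage gave Psmd12 a Simes p of 0.321 (adjusted p = 1, edgeR), so a difference between its sites was not shown.

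The other was the fourth of 5 sites of Psmd11 (chr10:67856303-67856327), with 9, 14, 10 and 11 reads in control and 4, 6, 1 and 3 in obesity. Its log2 fold change was -1.68 (SE 0.77), with an unadjusted p of 0.0463 and an adjusted p of 1 (edgeR). In all, 4 proteasome sites lay lower in CPM in every obesity library, against 1.69% of all sites. The other 2 were the distal site of Psma6 and the most 5′ site of Psme4. The Psma6 site had 62, 72, 100 and 84 reads in control and 38, 49, 64 and 59 in obesity. These overlap as reads but not in CPM (at least 34.9 in control, at most 33.9 in obesity). No proteasome site lay higher in every obesity library, and the share of all sites that did was not counted.

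**Figure D5:**
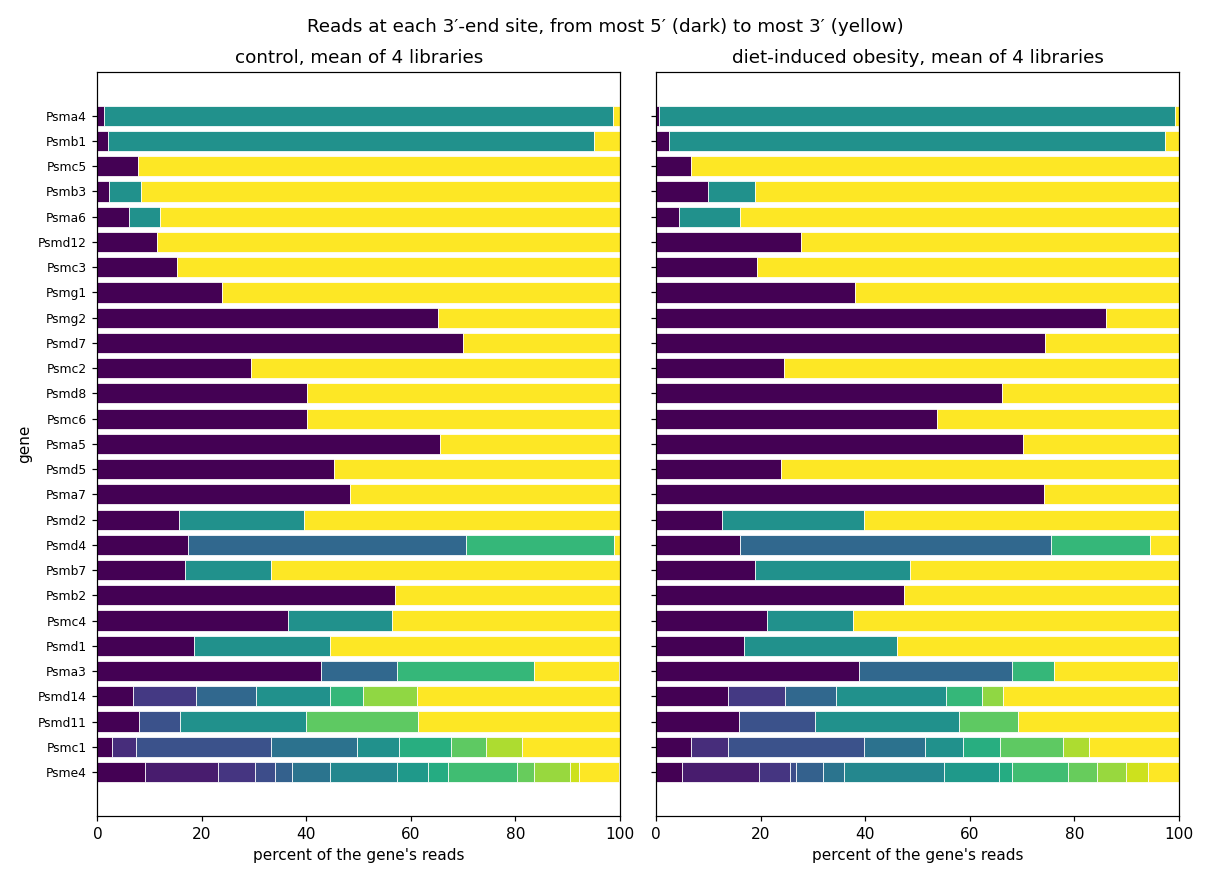
Mean percent of the reads of a gene at each of its sites, ordered from most 5′ (dark) to most 3′ (yellow), for the 27 genes with 2 or more sites, in control (left) and obesity (right); genes are ordered by the share of their most used site. For the genes at the top the most used site was the same in both groups. Among genes with 2 sites, Psma7 had 48.4% against 74.1% at its 5′ site, and Psmd8, with 115 reads in all, had 40.2% against 66.1%.

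Site usage within a gene was tested over 8276 genes with several sites (Simes p-value of edgeR's test of relative usage). Of the 27 proteasome genes tested 0 passed an adjusted p of 0.1, against 0.0121% of all genes tested, and 0 had an unadjusted p under 0.05, against 1.82%. DESeq2 offers no such test and was not run on usage. The lowest p was 0.26, for Psmd4. Psma7, chosen after its values were seen, had 48.4% ± 14.5 of its reads at the 5′ site in control and 74.1% ± 25.1 in obesity (SD, n = 4). Its adjusted Simes p was 1 (unadjusted 0.375, edgeR). Without obesity 2 its unadjusted p was 0.0491 (adjusted p = 1, edgeR), the 1 proteasome gene of 27 (3.7%) under 0.05 in any fit that left out a library, where 4.37% of all genes tested were.

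Genes that work with the proteasome also had fold changes mostly below 0. Of 31 symbols of ubiquitin-activating enzymes, shuttle factors, proteasome-bound deubiquitinases and regulators, 25 were found, and 17 had a log2 fold change below 0, with a median of -0.29 against 0.01 over all genes. At an unadjusted p under 0.05 there were 3 of 25, all lower (edgeR), where 5.3% of all genes were at that p, and 0 passed the adjusted threshold. Uba1, the main ubiquitin-activating enzyme, was read at 173, 122, 202 and 237 CPM in control and 135, 103, 106 and 133 in obesity. Its log2 fold change was -0.62 (SE 0.23), with an unadjusted p of 0.0166 and an adjusted p of 0.904 (edgeR), and obesity 1 and 4 lay above control 2. The shuttle factor genes Ubqln2 and Rad23b stood at -0.69 each (unadjusted p = 0.0302 and 0.0438, edgeR).

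With the block, 5 of the 25 were lower and 1 higher at an unadjusted p under 0.05, against 10.9% of all genes, and 0 passed the adjusted threshold (edgeR). The added genes were Vcp, the segregase that pulls tagged proteins from complexes, Nfe2l1, and, as the higher one, the ubiquitin gene Ubb. Nfe2l1 was read at 518, 577, 585 and 544 CPM in control and 462, 542, 394 and 323 in obesity, with a log2 fold change of -0.37 (SE 0.20, unadjusted p = 0.0759 without the block and 0.012 with it, edgeR). Ubb, which shares coding sequence with other ubiquitin genes, had 0, 4, 18 and 4 reads in control and 20, 22, 33 and 11 in obesity.

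Markers of cell types, fixed as lists, were read beside these values. Neuron markers (9 of 10 found) summed to 6964 to 9718 CPM in control and 5991 to 8680 CPM in obesity, with 7 of 9 fold changes below 0 and a median of -0.15. Oligodendrocyte markers (10 of 10 found) summed to 17362 to 22260 and 13435 to 20902 CPM, with 10 of 10 below 0 and a median of -0.20, and astrocyte markers (10 of 10 found) to 4845 to 7003 and 4323 to 6239 CPM, with 6 of 10 below 0 and a median of -0.15. Endothelial and mural markers (8 of 11 found) summed to 178 to 228 and 189 to 225 CPM, with 5 of 8 below 0 and a median of -0.15. Microglia markers (7 of 13 found) summed to 198 to 273 and 120 to 242 CPM, with 3 of 7 below 0 and a median of 0.07. Stmn2 (neurons, log2 fold change -0.61), Aldoc (astrocytes, -0.53), Mal (oligodendrocytes, -0.42) and Csf1r (microglia, -0.80) had an unadjusted p under 0.05, all lower (edgeR). No endothelial or mural marker did. Of the 12 hypothalamic peptide genes above, Sst (-1.36), Oxt (-0.74) and Avp (-0.44) were lower and Crh (1.72) higher at that p. None passed the adjusted threshold, and 5.3% of all genes were at that p. The part of cell makeup in the proteasome values was not tested.

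The interferon and antigen presentation list, relevant to Psme1 and Psme2, had 6 of 15 genes in the table. It summed to 230 to 336 CPM in control and 172 to 236 CPM in obesity, with 3 of 6 fold changes below 0 and a median of 0.11. Ifi27, an interferon-induced gene, was read at 98.9, 115, 134 and 102 CPM in control and 55.7, 85, 57.2 and 64.1 in obesity. It lay lower in every obesity library, as did 1.67% of all genes, at a log2 fold change of -0.78 (SE 0.24, unadjusted p = 0.00431, adjusted p = 0.904, edgeR). Stat2 of the same list went the other way without overlap, at 2.12 to 7.83 CPM in control and 7.93 to 10.8 in obesity (log2 fold change 0.51, SE 0.62, unadjusted p = 0.419, edgeR).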

How the data were processed

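The deposited table holds raw read counts per 3′-end site, with no normalization. According to the submitters' processing notes, the build was Rnor_6.0 and Bowtie2 2.2.3 was used, and how reads were grouped into sites, annotated and filtered is not given in the sources used here. RNA was purified with the Qiagen RNeasy Micro kit, and libraries were amplified by PCR without molecular identifiers. Errors rest on the spread between libraries, in which counting, rat-to-rat and amplification differences cannot be told apart. Libraries held 1417531 to 1957726 reads (13341135 in all), of which proteasome genes took between 0.146% (obesity 1) and 0.221% (control 3). The lowest site total was 30 reads, so a cutoff preceded deposition. A line without a site, holding a column total, was left out.

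Sites were summed per gene on both strands and tested, without a filter, with edgeR 4.0.16 (quasi-likelihood, robust, TMM) in R 4.3.3. SE is the absolute log2 fold change over the root of F. Usage was tested with diffSpliceDGE. Alternatives were a replicate block, DESeq2 1.42.0 size factors and Wald test, filterByExpr, 1 strand, the top site, and libraries left out. Thresholds were an adjusted p of 0.1 and an unadjusted p of 0.05. The scripts were run on simulated counts with planted changes, as a check of the code. Those counts held no effect of the library number, so they do not gauge the power of the tests on these libraries.

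Both groups carry numbers 1 to 4 in the titles. Deviations over all genes correlated at 0.222 to 0.327 for same numbers and -0.175 to 0.0493 for different ones, so the numbers were taken to pair libraries. The design text lists 8 separate rats.

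Genes named are the catalytic subunits, the top gene of each role, genes with an unadjusted p under 0.05 in either fit and up to 5 such sites. Genes of the further lists are named if they had such a p without the block. Others are named for range or role, some after values were seen. Members and lists were chosen with earlier results of these data known.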

Additional observations from a re-analysis of the deposited data

Results flagged for a closer look

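Single libraries that stood far from the other 3 of their group were sought with Dixon's test in 102 sets of 4 values, namely each of the 40 genes, 9 sums (8 roles and all genes) and the 2 sites with an unadjusted p under 0.05, in each group. The test marked 8, where it marks about 1 in 20, or 5.1 of 102, of independent sets of normally distributed values. The sets here hold low counts, the sums share genes with the single sets, and the 2 sites were picked by p, so 5.1 is only a rough guide. Control 2 was high for Psma7 (42.6 CPM, against 11.2 to 13.4 in the other control libraries), for Psmd4 (169 CPM, against 75.9 to 88.3) and for Psmc3ip, which encodes no proteasome subunit (5.81 CPM, or 9 reads, against 0.707 to 0.783, or 1 read each). Control 1 was high for Psmc4 (27.6 CPM, against 7.75 to 10.4) and control 4 for Psmd6 (11.2 CPM, against 0 to 1.57). Of the obesity libraries, obesity 1 was high for Psmd5 (20 CPM, against 3.3 to 5.66) and obesity 2 low for Psma5 (0.794 CPM, against 13.2 to 15.6). Of the 27 Psmd5 reads in obesity 1, 11 came from a site on the other strand, which held 37.5% of the reads of that gene.

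The summed level of the activators and inhibitor was 199 CPM in obesity 4, the library with the choroid plexus transcript Ttr, and 131 to 142 CPM in the other obesity libraries. Psme4 made up most of it, at 135 CPM in obesity 4. The cause of these values was not tested.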

How the results depend on the processing

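No proteasome gene passed the adjusted threshold under any alternative but 1, and likewise no proteasome site: with the replicate block and without both libraries numbered 2, 1 gene and 1 site (Psmb5, -1.26) passed. Genes at an unadjusted p under 0.05 numbered 2 in the reported fit. They numbered 1 with DESeq2 size factors, with filterByExpr and with the most abundant site only (5.34%, 6.19% and 4.32% of all genes), 4 with the replicate block (10.9%), 8, 0 and 1 with the block and without both libraries numbered 2, 3 and 4 (15.1%, 6.9% and 6.81%), and 0 to 5 without single libraries (0 without control 3, 5 without control 2, 4 without obesity 2, 1 without control 4, obesity 1 or obesity 3, where 3.5% to 9.96% of all genes were). Sites numbered 2 in the reported fit, 1 with DESeq2 size factors and with filterByExpr (3.2% and 4.59% of all sites), 7 with the block (6.09%), 8 and 13 with the block and without both libraries numbered 1 and 2 (5.05% and 7.46%), and 0 to 8 without single libraries (0 without control 3, 1 without control 4, 8 without obesity 2, where 2.75%, 3% and 5.52% of all sites were). Genes with changed usage at that p numbered 0 to 1 without single libraries. Of 251 checks of named genes over 18 alternatives, 8 turned the sign, in 4 genes near 0. Psme4 ran from -0.12 to 0.16 without single libraries and stood at -0.05 and -0.01 with the block and without both libraries numbered 1 and 4, Psmb7 ran from -0.44 to 0.15, Psmb1 from -0.35 to 0.00 and Psmc1 from -0.46 to 0.04. Psmb7 also moved, without a turn of sign, to -0.49 on 1 strand and to -0.58 with the most abundant site only. The cause of these moves was not tested. Of the 40 genes 7 had fewer than 100 reads in all 8 libraries, and how far depth set the width of their intervals was not tested.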
